A study of Mus musculus with 18 samples.

Results

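The genes described here encode subunits of the oxidative phosphorylation complexes of mitochondria, measured in the palate of mouse embryos. A gene was a member if the platform annotation gave a probe set 1 symbol that begins with Nduf, Cox4 to Cox8, Uqcr, Sdha to Sdhd or Atp5. The isoforms Cox6a2, Cox7a1 and Cox8b of striated muscle were left out. The rule found 91 genes among the 18193 genes measured: 34 subunits of complex I, 4 of complex II, 8 of complex III, 16 of complex IV, 17 of complex V and 12 assembly factors that share the Ndufaf and Sdhaf stems. Each gene was read from its brightest probe set over all 18 arrays, and no measured difference entered the choice of probe set. The group of genes itself was chosen with earlier results of these data known. Among the 91, 39 genes had a single probe set, and no gene had more than 6.

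The 18 arrays fell into 3 groups of 6, all from the strain C57BL/6J at embryonic day 15.5, with the sex not determined. The mutant posterior samples came from K14-Cre;Tgfbr2 fl/fl embryos, in which a keratin 14 promoter drives Cre recombinase in epithelial cells and removes Tgfbr2, a receptor for TGF-beta ligands. The control posterior and control anterior samples came from Tgfbr2 fl/fl embryos, which carry the floxed allele without Cre. The deletion is therefore limited to cells that express Cre, while the RNA came from whole palatal tissue, which holds epithelium, mesenchyme, muscle, vessels and blood. The study asked how loss of this signal in epithelium acts on epithelium and muscle fibres. Mutants and controls came from separate litters. Whether a sample was 1 embryo or several was not stated, and the p-values rest on the spread between these samples, which may be partly technical. In whole tissue, fewer cells of a type and less RNA per cell cannot be told apart.

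Oxidative phosphorylation passes electrons from NADH through complex I, or from succinate through complex II, to ubiquinone, then through complex III and cytochrome c to complex IV, which reduces oxygen. Complexes I, III and IV pump protons across the inner mitochondrial membrane, and complex V, the ATP synthase, uses the returning protons to make ATP. Most subunits are encoded in the nucleus, as all members here are, and a few core subunits in mitochondrial DNA. Muscle fibres are rich in these complexes and replace some complex IV subunits by isoforms of their own.

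Levels are log2 values after RMA, a method that corrects background, equalises the distributions of the arrays and summarises the probes of each probe set. Among the 91 genes, 87 lay above the median level of all genes. The 4 below it were Cox4i2, Cox7b2, Cox7c and Ndufb4, whose probe sets may read mostly background. Differences were tested with limma in 1 fit over the 3 groups, and a gene was called at an adjusted p under 0.05 over all 18193 genes. For genotype, a difference is the mean of the mutant posterior minus that of the control posterior arrays. For region, it is the mean of the control posterior minus that of the control anterior arrays. The same 6 control posterior arrays serve in both, so the 2 differences of a gene are not independent of each other.

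The 6 mutant arrays differed among themselves on these genes. The mean over the 91 genes was 11.54, 11.66 and 11.62 in mutant arrays 1 to 3 and 11.37, 11.42 and 11.21 in mutant arrays 4 to 6. It ran from 11.51 to 11.56 over the control posterior arrays and from 11.39 to 11.57 over the control anterior arrays. Mutant arrays 2 and 3 thus lay above every control array and mutant arrays 4 to 6 lay below every control posterior array. Hybridisation spike-ins, RNAs added in the laboratory, averaged 11.13 to 11.71 in mutant arrays 1 to 3 and 10.38 to 10.52 in mutant arrays 4 to 6, against 10.24 to 10.69 in control posterior arrays. The labels do not name such sets, and neither set holds both genotypes, so a set and a genotype cannot be told apart. The control arrays part by the same numbers: hybridisation spike-ins averaged 10.24 to 10.28 in control posterior arrays 1 to 3 and 10.61 to 10.69 in 4 to 6, and labelling spike-ins 8.12 to 8.30 and 9.26 to 9.43. Each of the 12 genotype calls is therefore also given with mutant arrays 1 to 3 alone and with 4 to 6 alone.

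**Figure D1:**
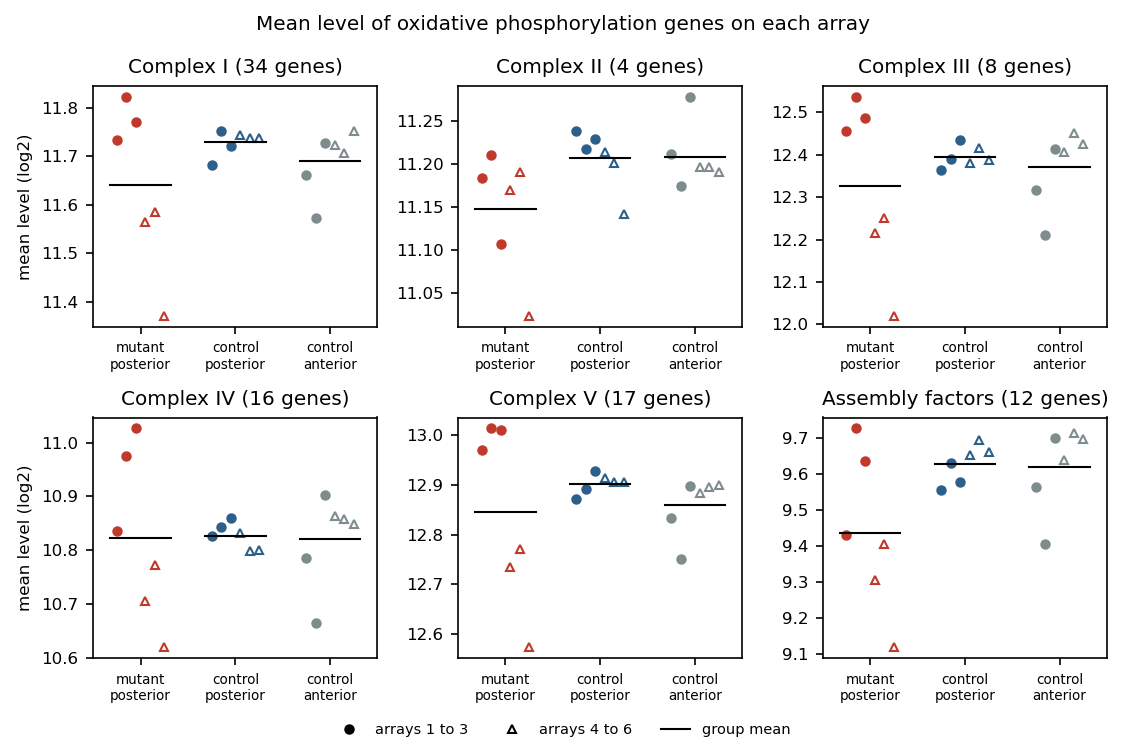
Mean log2 level of the member genes of each complex and of the assembly factors (vertical axes) in each of the 18 arrays, with mutant posterior, control posterior and control anterior arrays from left to right. Mutant arrays 1 to 3 and 4 to 6 separate, with a mean over all members of 11.54 to 11.66 and of 11.21 to 11.42, while control posterior arrays lie within 11.51 to 11.56.

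Other measures of the arrays are given once. The mean of 28 sarcomere genes was 9.09 to 11.81 in mutant posterior, 9.0 to 10.22 in control posterior and 5.84 to 7.71 in control anterior arrays. The mean of 16 basal and simple epithelial genes was 9.04 to 11.63 in mutant posterior and 10.96 to 11.37 in control posterior arrays, with the value of 9.04 in mutant array 1. The mean of 11 genes of stratified epithelium was 8.25 to 10.03 in mutant posterior and 7.21 to 7.96 in control posterior arrays. Labelling spike-ins averaged 6.39 to 7.73 in mutant posterior and 8.12 to 9.43 in control posterior arrays. The 3' minus 5' difference of the Gapdh control probe sets, which grows when RNA or its copy is shortened, was 0.07 to 0.30 in mutant arrays 1 to 3, -0.08 to -0.04 in mutant arrays 4 to 6 and -0.04 to 0.12 in control posterior arrays. Its highest value was 0.35, in control anterior array 6. That of the Actb control probe sets was 0.32 to 0.61 in mutant arrays 1 to 3, 0.28 to 0.35 in mutant arrays 4 to 6 and 0.41 to 0.60 in control posterior arrays. The mean of 8 mesenchymal genes was 11.23 to 12.33 in mutant posterior, 11.34 to 11.68 in control posterior and 10.83 to 11.83 in control anterior arrays, so epithelial and mesenchymal markers of the labelled tissue were present throughout. The mean of 4 bone genes was 9.89 to 11.59 in mutant posterior and 9.07 to 9.73 in control posterior arrays, without overlap, and 2 of the 4 were called higher. The mean of 7 cartilage genes was 6.85 to 10.00 in mutant posterior and 6.35 to 7.16 in control posterior arrays (3 called higher), and that of 5 brown fat genes was 5.199 to 5.82 in mutant posterior and 5.04 to 5.24 in control posterior arrays (2 called higher). The part of these lists in the differences below was not tested. The deleted gene, Tgfbr2, had a positive log2 difference of 0.55 between mutant and control posterior arrays (adjusted p = 0.00879, limma), but its deletion is limited to epithelium and the position of its probes was not examined, so it does not check the labels.

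Between mutant and control posterior palate, 12 of the 91 genes were called, 2 higher and 10 lower in mutants. Over all genes tested, 13.5% were called in either direction, 7.73% higher and 5.73% lower. The share of members called in either direction, 13.2%, was close to that of all genes. With the directions apart, lower calls were more frequent among members than over all genes, and higher calls less frequent. Among genes above the median level, 12.6% of members and 18.8% of all genes were called. The lower genes spread over several complexes: Ndufb10, Ndufc1, Ndufa12 and Ndufa5 of complex I, Uqcrc2 of complex III, Cox5a of complex IV, Atp5pb and Atp5j2 of complex V, and the assembly factors Ndufaf7 and Sdhaf3. The higher genes were Cox7b2 of complex IV and Ndufs1 of complex I. The differences of the called genes, read from their brightest probe sets, ran from -0.43 to 0.39 on the log2 scale. Among the 90 further probe sets of members, 16 were called lower and 1 higher (limma over all 34945 probe sets with 1 symbol). Of all 34945 probe sets, 5.36% were called lower and 8.08% higher. Lower calls were thus more frequent among these further probe sets than over all probe sets, and higher calls less frequent. Some differed by more than the called genes, such as those of Atp5o (-1.11, adjusted p = 0.0118), Ndufb6 (-0.86, adjusted p = 0.00158), Ndufaf4 (-0.77, adjusted p = 0.00148) and Cox6c (-0.76, adjusted p = 0.0169), named after their values were seen (limma, same fit). The median difference over the 91 genes was -0.06, with 66 negative and 25 positive, and 0.04 over all genes. Without mutant array 6 it was -0.011, with 48 negative and 43 positive, and without mutant array 3 it was -0.10. The 6 mutant and 6 control values did not overlap for 7 of the 91 genes, where 6.55% of all genes did not overlap. For 76 of the 91 genes the 95% interval of the difference lay within 0.5 on the log2 scale in either direction, a change of 1.41-fold.

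**Figure D2:**
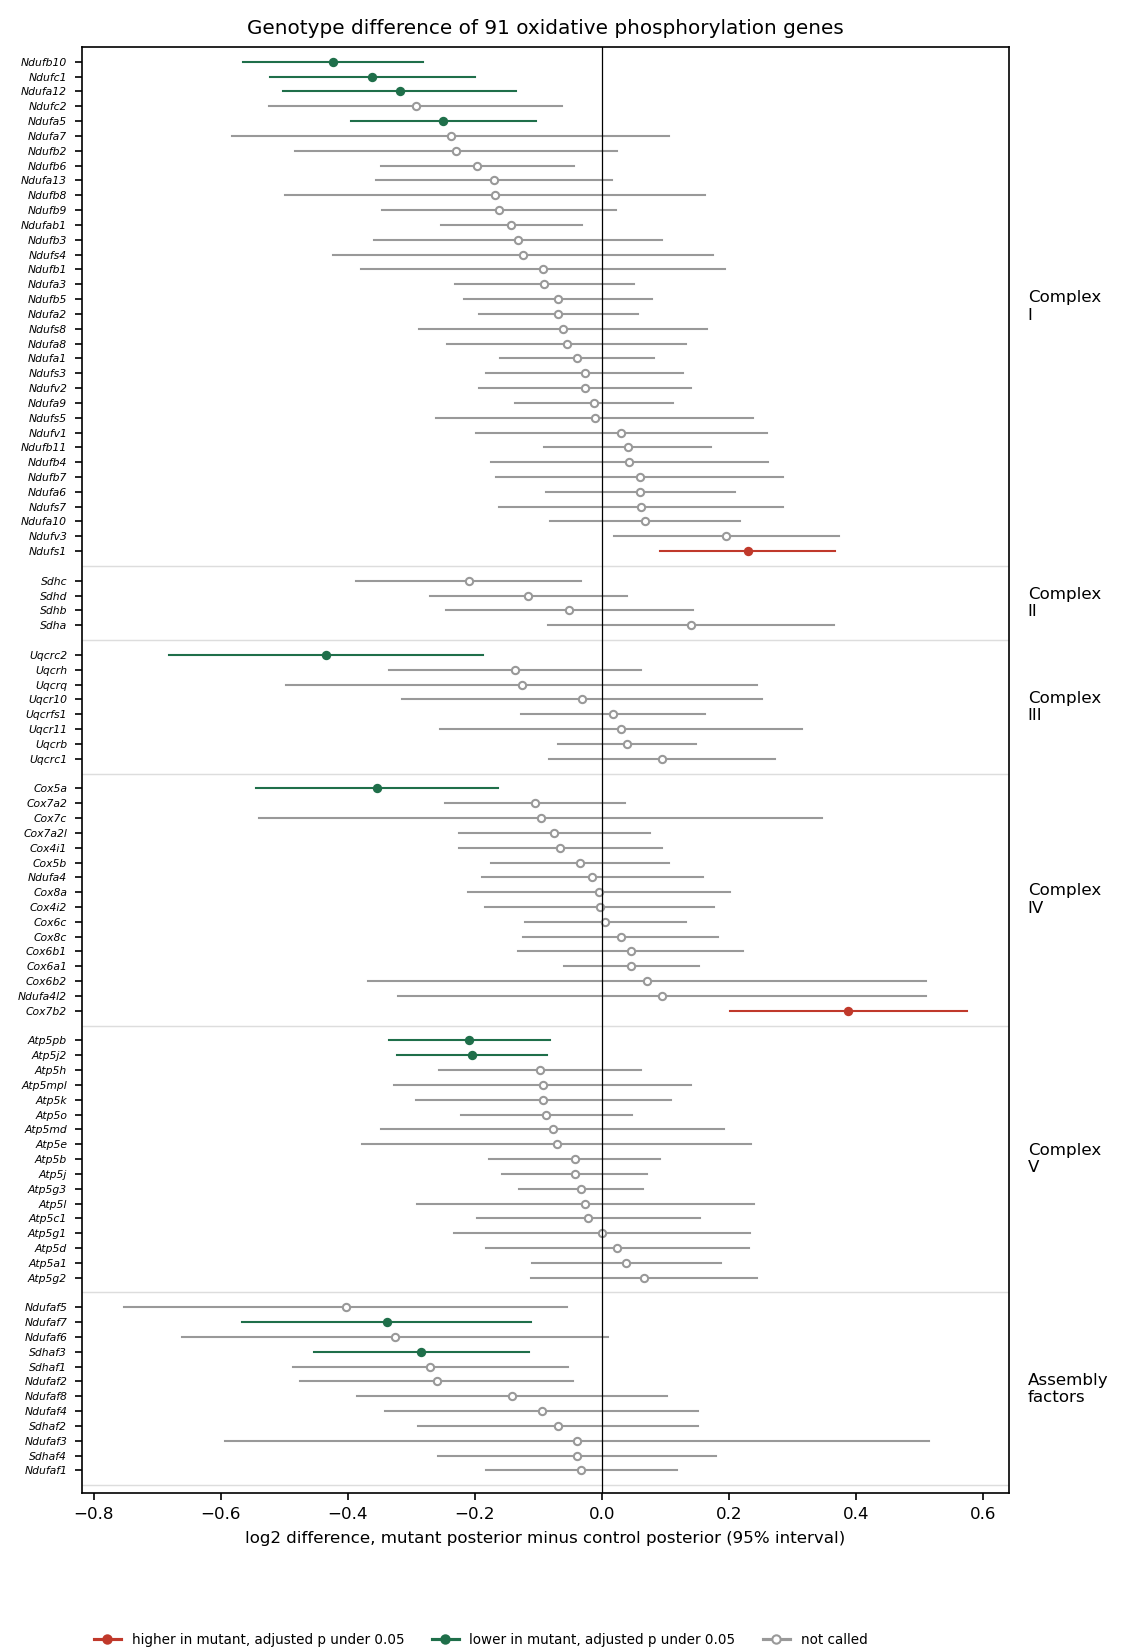
Log2 difference of each of the 91 genes, mutant minus control posterior palate, grouped by complex, with the called genes marked. The 12 called genes, 10 of them below 0, lie between -0.43 and 0.39 and are spread over complexes I, III, IV and V and the assembly factors.

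Complex I takes electrons from NADH and is the largest of the complexes. Of its 34 measured subunits 1 was higher and 4 were lower in mutants, and the median difference was -0.07. Ndufb10, an accessory subunit on the side of the intermembrane space, had a lowest, median and highest level of 10.65, 10.93 and 11.05 in mutant arrays, against 11.20, 11.36 and 11.41 in control posterior arrays. All 6 mutant values lay below all 6 control values. The difference was -0.42 (SE 0.07, adjusted p = 0.000684, limma), the smallest p among the members. It was -0.35 with mutant arrays 1 to 3 only and -0.49 with 4 to 6 only, and was called with each (adjusted p = 0.00152 and 0.000704, limma).

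Ndufc1, a small subunit of the membrane arm, had a lowest, median and highest level of 12.18, 12.39 and 12.65 in mutant arrays, against 12.68, 12.79 and 12.84 in control posterior arrays. The groups did not overlap, although the highest mutant value came close to the lowest control value. It fell by 0.36 (SE 0.08, adjusted p = 0.00487, limma), and its second probe set differed by -0.14 (adjusted p = 0.218). P-values of second and further probe sets come from a limma fit over all 34945 probe sets with 1 symbol. With mutant arrays 1 to 3 only the difference was -0.51, and with 4 to 6 only it was -0.21, both called (adjusted p = 9.06e-05 and 0.0383, limma). After each array was centred on its median, the difference with 4 to 6 was -0.23 and not called (adjusted p = 0.0732, limma), with a wider error.

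Ndufa5, an accessory subunit of the part that reduces ubiquinone, had a lowest, median and highest level of 10.89, 11.004 and 11.16 in mutant arrays, against 11.19, 11.23 and 11.40 in control posterior arrays, with no overlap. It fell by 0.25 (SE 0.07, adjusted p = 0.0217, limma), and its second probe set also differed by -0.25. Each set of mutant arrays alone gave -0.25, called with adjusted p = 0.0412 for arrays 1 to 3 and 0.0392 for arrays 4 to 6 (limma). Ndufb10, Ndufc1 and Ndufa5 were the members called in the same direction over all 6 mutant arrays and with each set alone, in fits that share the control arrays.

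Ndufa12, an accessory subunit of the arm in the matrix, had a lowest, median and highest level of 11.68, 11.96 and 12.28 in mutant arrays, against 12.26, 12.31 and 12.35 in control posterior arrays. Only the highest mutant array reached into the control range. The difference was -0.32 (SE 0.09, adjusted p = 0.0204, limma), but its 4 probe sets did not agree: the other 3 differed by -0.78 (adjusted p = 1.49e-05), 0.07 (adjusted p = 0.551) and 0.20 (adjusted p = 0.484). The brightest probe set and the one at -0.78 carry the suffix that marks probes shared with other sequences. Ndufa12 was called with mutant arrays 1 to 3 only, at -0.48 (adjusted p = 0.000200), and not with 4 to 6 only, at -0.16 (adjusted p = 0.153, limma).

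Ndufs1, the largest iron-sulphur subunit and a core part of the NADH module, was the only complex I gene higher in mutants. Its lowest, median and highest level was 10.01, 10.25 and 10.29 in mutant arrays, against 9.85, 9.99 and 10.05 in control posterior arrays, so the ranges overlapped at the edge. The difference was 0.23 (SE 0.06, adjusted p = 0.0259, limma). After each array was centred on its median it was 0.18 and not called (adjusted p = 0.0729, limma). With mutant arrays 1 to 3 only the difference was 0.28 (adjusted p = 0.0114), and with 4 to 6 only it was 0.18 (adjusted p = 0.121), so Ndufs1 was called with arrays 1 to 3 only (limma).

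The other measured core subunits of complex I were not called, nor were the accessory subunits Ndufa9 and Ndufab1. Ndufv1, which binds NADH, had a lowest, median and highest level of 11.17, 11.56 and 11.95 in mutant arrays, against 11.37, 11.53 and 11.64 in control posterior arrays, a difference of 0.03 (adjusted p = 0.886). The mutant values thus reached beyond the control values on both sides. Ndufa9, at the junction of both arms, differed by -0.01 with a 95% interval of -0.14 to 0.11. Ndufab1, the mitochondrial acyl carrier protein, which also serves fatty acid synthesis, had mutant values of 12.16 to 12.38 below control values of 12.40 to 12.46, but its difference of -0.14 was not called (adjusted p = 0.0772, limma); it was named for this lack of overlap after its values were seen.

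To show the DNA in front of the complex I genes called with each mutant set, and of a called assembly factor, the 250 bases before the transcript start are given from the RefSeq table of mouse genome build GRCm38.p6, written 5' to 3' on the strand of the gene. Capitals mark a match to the motif of NRF1 (GCGCA, any base, then GCGC) or of the ETS family (CCGGAAG) on either strand. Both motifs are known from promoters of respiratory chain genes, where NRF1 and the ETS factor GABP act as activators.
Ndufb10 (chr17:24724424-24724673, minus strand): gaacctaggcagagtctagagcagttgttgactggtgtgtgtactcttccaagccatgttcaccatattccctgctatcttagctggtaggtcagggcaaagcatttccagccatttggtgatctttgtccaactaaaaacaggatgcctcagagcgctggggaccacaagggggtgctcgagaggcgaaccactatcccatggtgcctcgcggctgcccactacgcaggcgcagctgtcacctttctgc
Ndufc1 (chr3:51408956-51409205, minus strand): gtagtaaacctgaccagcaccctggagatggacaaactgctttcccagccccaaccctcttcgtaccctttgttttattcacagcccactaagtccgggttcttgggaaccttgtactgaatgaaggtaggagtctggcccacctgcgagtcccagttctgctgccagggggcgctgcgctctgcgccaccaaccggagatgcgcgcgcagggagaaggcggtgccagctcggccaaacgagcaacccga
Ndufa5 (chr6:24527691-24527940, minus strand): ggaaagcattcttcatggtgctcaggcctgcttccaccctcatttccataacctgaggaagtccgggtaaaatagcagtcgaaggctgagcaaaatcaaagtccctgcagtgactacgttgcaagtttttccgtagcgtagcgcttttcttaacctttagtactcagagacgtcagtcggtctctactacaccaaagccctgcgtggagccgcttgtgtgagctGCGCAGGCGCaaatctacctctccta
Sdhaf3 (chr6:6955768-6956017, plus strand): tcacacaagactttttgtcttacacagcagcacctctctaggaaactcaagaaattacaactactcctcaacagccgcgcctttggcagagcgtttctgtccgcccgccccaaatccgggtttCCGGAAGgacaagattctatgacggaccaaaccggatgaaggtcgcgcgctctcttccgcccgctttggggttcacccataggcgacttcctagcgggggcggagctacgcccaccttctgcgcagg

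The windows of Ndufb10 and Ndufc1 held neither motif. That of Ndufa5 held GCGCAGGCGC, whose first base lies 26 bases before the start used here, and 190 bases before the other start that the table lists for this gene. That of Sdhaf3 held CCGGAAG with its first base 127 bases before the start. No other called member had a match to either motif in the windows searched, so the windows printed do not stand for all called members. Promoters were found for 76 of the 91 members. The NRF1 motif was in 15.8% of these, against 7.01% of 14369 genes measured on the array, and the ETS motif was in 21.1% against 11.8%. The GC content was 57.3% in members and 57.8% in the array genes. The YY1 motif AAGATGGCG was in 1.32% against 1.04% and the ERRalpha motif TCAAGGTCA in 1.32% against 0.376%. The CCAAT box was in 42.1% against 39.4%, the SP1 motif GGGCGG in 46.1% against 53.5%, and TATAAA, searched on the strand of the gene, in 2.63% against 6.72%. These shares count letters in a window, not sites in use, and other motifs may overlap them.

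Complex II oxidises succinate and is encoded wholly in the nucleus. None of its 4 subunits was called (1 had an unadjusted p under 0.05, limma). Sdhc, a membrane anchor, had a lowest, median and highest level of 10.14, 10.57 and 10.76 in mutant arrays, against 10.68, 10.73 and 10.80 in control posterior arrays, a difference of -0.21 (adjusted p = 0.103, limma). Its mutant values were spread more widely than its control values. The other anchor, Sdhd, differed by -0.12, the iron-sulphur subunit Sdhb by -0.05 and the flavoprotein Sdha by 0.14. Dimmer probe sets of both Sdhd (-0.62, adjusted p = 0.0101) and Sdha (0.32, adjusted p = 0.0460) were called (limma). Sdha was called higher with mutant arrays 4 to 6 only (0.33, adjusted p = 0.0411, limma), the only member called higher in that fit, while Sdhb (-0.27) and Sdhd (-0.24) were called lower in it.

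Complex III passes electrons from ubiquinol to cytochrome c. Of its 8 subunits 1 was lower. Uqcrc2, a core protein on the matrix side, had a lowest, median and highest level of 11.37, 11.85 and 12.13 in mutant arrays, against 12.05, 12.26 and 12.40 in control posterior arrays. The groups overlapped at their edges. Uqcrc2 fell by 0.43 (SE 0.12, adjusted p = 0.0195, limma), but its second probe set, also bright, differed by -0.01 (adjusted p = 0.956). Uqcrc2 was called with mutant arrays 1 to 3 only, at -0.67 (adjusted p = 0.000316), and not with 4 to 6 only, at -0.19 (adjusted p = 0.153, limma). The partner core protein Uqcrc1 differed by 0.10 (adjusted p = 0.493) and the Rieske iron-sulphur protein Uqcrfs1 by 0.02 (adjusted p = 0.899).

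Complex IV, cytochrome c oxidase, had 1 higher and 1 lower gene among 16. Cox5a, a subunit on the matrix side, had a lowest, median and highest level of 12.63, 12.96 and 13.22 in mutant arrays, against 13.19, 13.27 and 13.37 in control posterior arrays. Only the highest mutant array reached the control range. Cox5a fell by 0.35 (SE 0.09, adjusted p = 0.0148, limma), with -0.14 (adjusted p = 0.170) and -0.31 (adjusted p = 0.0168) in its other, dimmer probe sets. With mutant arrays 1 to 3 only the difference was -0.54 (adjusted p = 0.000172), and with 4 to 6 only it was -0.17 (adjusted p = 0.113), so Cox5a was called with arrays 1 to 3 only (limma). The other matrix subunit, Cox5b, differed by -0.03 (95% interval -0.18 to 0.11).

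Cox7b2, known as a testis isoform of subunit 7b, had a lowest, median and highest level of 3.44, 3.71 and 3.98 in mutant arrays, against 3.19, 3.33 and 3.39 in control posterior arrays. The groups did not overlap, and all values lay far below the array medians of 7.29 to 7.52. The difference was 0.39 (SE 0.09, adjusted p = 0.00788, limma), at levels where background may enter. Cox7b2 was called with mutant arrays 1 to 3 only, at 0.57 (adjusted p = 0.000113), and not with 4 to 6 only, at 0.20 (adjusted p = 0.0703, limma). The other isoforms with a restricted pattern were not called for genotype: the hypoxia and lung isoform Cox4i2 differed by -0.0033, the testis isoforms Cox6b2 by 0.07 and Cox8c by 0.03, and Ndufa4l2, a paralogue of Ndufa4 that hypoxia induces, by 0.09.

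None of the common isoforms was called. Cox4i1 had a lowest, median and highest level of 13.37, 13.60 and 13.89 in mutant arrays, against 13.66, 13.69 and 13.73 in control posterior arrays, so the control arrays lay within the range of the mutants. Its difference was -0.07 (95% interval -0.23 to 0.09). The 95% interval was -0.06 to 0.15 for Cox6a1, -0.13 to 0.22 for Cox6b1, -0.25 to 0.04 for Cox7a2, -0.21 to 0.20 for Cox8a and -0.19 to 0.16 for Ndufa4, a subunit first placed in complex I. Cox7a2l, a factor of supercomplex assembly, differed by -0.08 (adjusted p = 0.524, limma).

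Complex V makes ATP. Of its 17 subunits 2 were lower, both outside the catalytic head. Atp5pb, the b subunit of the peripheral stalk, had a lowest, median and highest level of 12.95, 13.00 and 13.05 in mutant arrays, against 13.11, 13.21 and 13.30 in control posterior arrays. Atp5j2, the f subunit of the membrane part, had 12.93, 13.12 and 13.20 in mutant arrays, against 13.26, 13.31 and 13.35 in control posterior arrays. Neither gene had overlapping groups. Atp5pb fell by 0.21 (SE 0.06, adjusted p = 0.0271, limma) and Atp5j2 fell by 0.20 (SE 0.06, adjusted p = 0.0209, limma). Atp5pb differed by -0.20 with mutant arrays 1 to 3 only (adjusted p = 0.0639) and by -0.22 with 4 to 6 only (adjusted p = 0.0456, limma). Atp5j2 differed by -0.11 with mutant arrays 1 to 3 only (adjusted p = 0.137) and by -0.30 with 4 to 6 only (adjusted p = 0.00202, limma). The next brightest probe sets differed by -0.18 for Atp5pb (adjusted p = 0.0579) and by -0.14 for Atp5j2 (adjusted p = 0.383), and with the mean of all probe sets of a gene Atp5j2 was not called. The head subunits Atp5a1 (0.04, 95% interval -0.11 to 0.19) and Atp5b (-0.04, 95% interval -0.18 to 0.09) were not called, nor were the c-ring genes Atp5g1 (0.00), Atp5g2 (0.07) and Atp5g3 (-0.03).

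Assembly factors help to build complexes I and II and are not part of the finished enzymes. Over all 6 mutant arrays the 12 had negative differences, with a median of -0.20, and 2 were called lower. With mutant arrays 1 to 3 only, 6 were positive and 6 negative, with a median of 0.005. With 4 to 6 only, 1 was positive and 11 were negative, with a median of -0.32. Ndufaf7, a methyltransferase that modifies a complex I subunit, had a lowest, median and highest level of 8.20, 8.80 and 9.01 in mutant arrays, against 8.91, 9.05 and 9.18 in control posterior arrays. Sdhaf3, which acts in the maturation of complex II, had 8.54, 8.72 and 8.86 in mutant arrays, against 8.84, 9.01 and 9.11 in control posterior arrays. Both genes overlapped at the edge of the groups. Ndufaf7 fell by 0.34 (SE 0.11, adjusted p = 0.0431, limma) and Sdhaf3 fell by 0.28 (SE 0.08, adjusted p = 0.0242, limma). Ndufaf7 differed by -0.44 with mutant arrays 1 to 3 only (adjusted p = 0.0144) and by -0.24 with 4 to 6 only (adjusted p = 0.105, limma). Sdhaf3 differed by -0.16 with mutant arrays 1 to 3 only (adjusted p = 0.187) and by -0.41 with 4 to 6 only (adjusted p = 0.00409, limma). The second, dim probe set of Sdhaf3 differed by 0.10, and with the mean of all probe sets Sdhaf3 was not called.

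**Figure D3:**
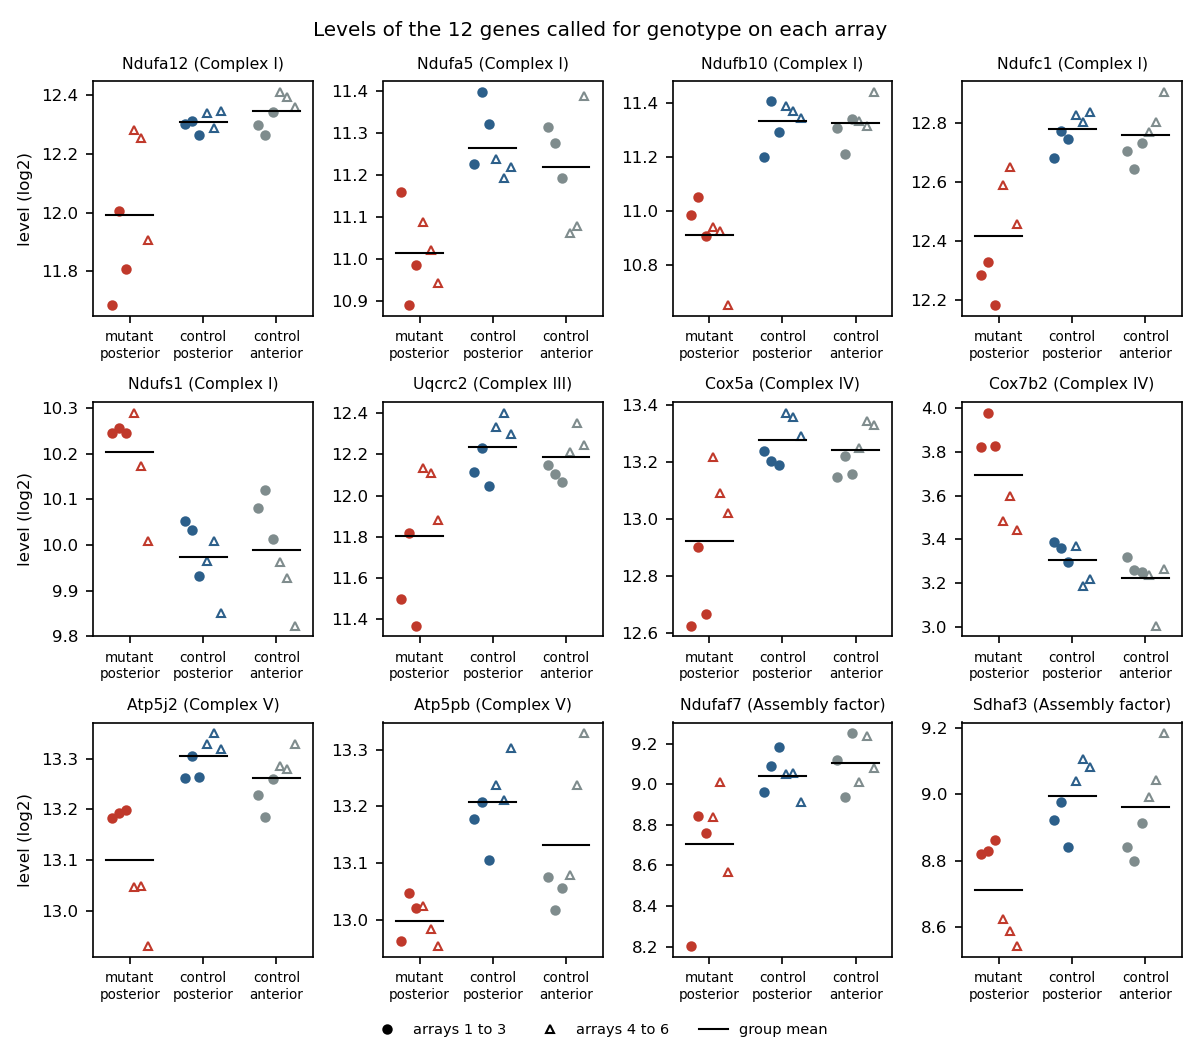
Log2 level of each of the 12 genes called for genotype in every array, with mutant posterior, control posterior and control anterior arrays from left to right. Ndufb10, Ndufc1, Ndufa5, Atp5pb and Atp5j2 have every mutant array below every control posterior array, and Cox7b2 has every mutant array above them.

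Some calls lay near the threshold and were lost when 1 array was left out. Without control posterior array 5, 8.31% of all genes were called, against 13.5% with all arrays. Without control posterior array 5 the differences of Atp5j2 (-0.20, adjusted p = 0.0523), Uqcrc2 (-0.40, adjusted p = 0.0523), Atp5pb (-0.21, adjusted p = 0.0554) and Sdhaf3 (-0.26, adjusted p = 0.0628) were not called (limma). Without control posterior array 4, Atp5pb (-0.20, adjusted p = 0.0597), Sdhaf3 (-0.28, adjusted p = 0.0543) and Ndufs1 (0.23, adjusted p = 0.0531) were not called, nor without array 6 (adjusted p = 0.0662, 0.0571 and 0.0651, limma). Ndufa5 lost its call without control posterior array 2 (-0.22, adjusted p = 0.0544). The call of Ndufaf7 was lost in 12 of 18 such fits: without any 1 control posterior array, without control anterior array 1, 4 or 6, and without mutant array 1, 3 or 6 (differences of -0.24 to -0.36, adjusted p up to 0.0818, limma). Ndufb10, Ndufc1, Cox5a, Cox7b2 and Ndufa12 were called in all 18 fits.

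The sets of arrays had a larger effect. With 4 sets, arrays 1 to 3 and 4 to 6 of each genotype, as a random block, 3 of the 12 calls were kept: Ndufb10 (adjusted p = 0.0129), Ndufc1 (adjusted p = 0.0301) and Cox7b2 (adjusted p = 0.0465, limma). Calls fell over all genes too, to 3.23% in that fit against 13.5% in the main fit. The median over the members stayed at -0.06 in that fit, and its wider errors took the other 9 calls. With control arrays 1 to 3 only 0 of the 91 members were called by limma, and 9 had an unadjusted p under 0.05. Of all genes, 0.742% were called in that fit. Ndufb10, Ndufc1 and Sdhaf3 were called with control arrays 4 to 6 only (adjusted p = 0.0205, 0.0489 and 0.0480, limma), where 5.54% of all genes were called. With the sarcomere mean as a covariate, 4 of the 12 were called, Ndufb10, Ndufc1, Atp5j2 and Sdhaf3, and 7.22% of all genes were called.

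The 2 sets of mutant arrays went apart over the whole group of genes. Against the 6 control posterior arrays, mutant arrays 1 to 3 had 18 members higher and 8 lower, with a median of 0.08. In that fit 17.9% of all genes were higher and 9.55% lower, with a median of 0.09 over all genes. Mutant arrays 4 to 6 had 1 member higher and 40 lower, with a median of -0.21. In that fit 7.82% of all genes were higher and 10.4% lower, with a median of 0.00 over all genes. After each array was centred on its median, arrays 1 to 3 had 3 higher and 9 lower members. Of all genes, 9.12% were then higher and 11.96% lower. Arrays 4 to 6 had 1 higher and 39 lower members after centring, where 7.21% of all genes were higher and 9.58% lower. Most higher calls with arrays 1 to 3 thus depended on the scaling, and before centring the member median was close to that of all genes. The lower calls with arrays 4 to 6 hardly changed with the scaling.

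With mutant arrays 4 to 6, lower calls were made for 17 of 34 subunits of complex I, 2 of 4 of complex II, 4 of 8 of complex III, 3 of 16 of complex IV, 8 of 17 of complex V and 6 of 12 assembly factors. The largest of these differences were those of the complex I assembly factors Ndufaf5 (-0.80) and Ndufaf6 (-0.70), the complex I subunit Ndufa7 (-0.67), and the complex III subunit Uqcrq (-0.58), all named after their values were seen. With mutant arrays 1 to 3, higher calls were made for 8 subunits of complex I, 3 of complex III, 2 of complex IV and 5 of complex V, and lower calls for 5 of complex I, 1 of complex III, 1 of complex IV and 1 assembly factor. The lower ones included Ndufc2, a small membrane subunit also named after its values were seen (-0.57), whose difference with arrays 4 to 6 was -0.02 and not called (adjusted p = 0.893, limma).

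Of the 91 genes, 8 were called higher with mutant arrays 1 to 3 and lower with 4 to 6, and 0 the other way. The share of all genes that did the same is not given here, so the 8 are not shown to be particular to the members. Uqcrq, a small subunit of complex III, had 11.35, 12.16 and 12.61 as lowest, median and highest level over all mutant arrays, against 12.19, 12.22 and 12.37 in control posterior arrays. Its difference was 0.32 with mutant arrays 1 to 3 and -0.58 with 4 to 6, both called. Atp5e, the epsilon subunit of the ATP synthase stalk, gave 0.30 and -0.44, Uqcr10 gave 0.31 and -0.38, Uqcr11 gave 0.37 and -0.31, and the c-ring gene Atp5g1 gave 0.27 and -0.27, each pair with arrays 1 to 3 first and each value called. These genes, with differences near 0 over all 6 mutant arrays, were chosen after their values were seen, apart from Atp5g1. After each array was centred on its median, all 8 were still called lower with arrays 4 to 6, but with arrays 1 to 3 Uqcr11 (0.29, adjusted p = 0.0340) was the only one still called higher; Uqcrq had 0.24 (adjusted p = 0.108, limma). The hybridisation spike-ins, the mesenchymal mean (11.23 to 11.65 in mutant arrays 1 to 3 and 11.85 to 12.33 in 4 to 6), the brown fat mean (5.64 to 5.82 and 5.199 to 5.55) and the Gapdh 3' minus 5' difference parted the 2 sets without overlap. The sarcomere mean (10.52 to 11.81 and 9.09 to 11.20) and the labelling spike-ins (6.39 to 7.73 and 6.67 to 6.89) overlapped between them. So did the Actb 3' minus 5' difference (0.32 to 0.61 and 0.28 to 0.35). Of the 8 mesenchymal genes 0 were higher and 2 lower with arrays 1 to 3, and 5 were higher with 4 to 6. The part of these measures in the difference between the sets was not tested.

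**Figure D4:**
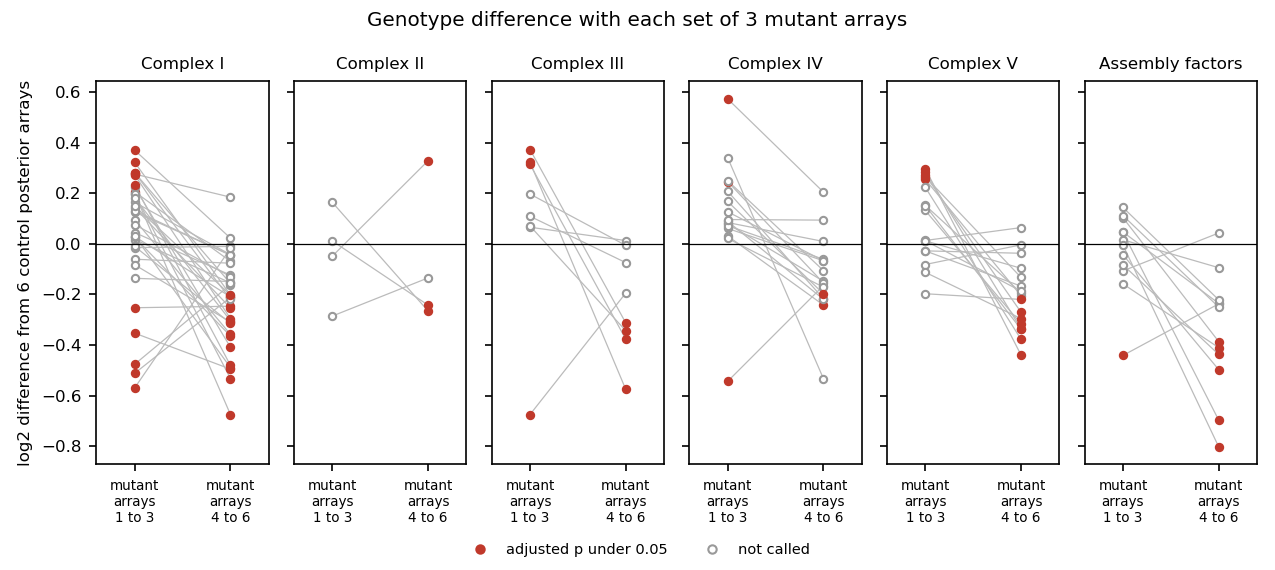
Log2 difference of each of the 91 genes from the 6 control posterior arrays (vertical axis), in panels for each complex and the assembly factors. Each gene is drawn with mutant arrays 1 to 3 only (left) and 4 to 6 only (right), joined by a line. Both sets share the control arrays. The median over the 91 genes is 0.08 with arrays 1 to 3 and -0.21 with 4 to 6. Ndufb10, Ndufc1 and Ndufa5 lie below 0 with both.

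Genes of the same pathway outside the rule were read from lists. Of 8 electron carriers and further complex III genes 2 were lower in mutants and 0 higher. Cycs, cytochrome c, which carries electrons between complexes III and IV, had a lowest, median and highest level of 12.28, 12.56 and 12.68 in mutant arrays, against 12.71, 13.02 and 13.09 in control posterior arrays, and fell by 0.46 (SE 0.09, adjusted p = 0.00276, limma). Its groups did not overlap, and it was called lower with mutant arrays 1 to 3 only (-0.56, adjusted p = 0.00114) and 4 to 6 only (-0.36, adjusted p = 0.0127, limma). Coq7, an enzyme of ubiquinone synthesis, fell by 0.23 (adjusted p = 0.0230, limma).

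Of 28 assembly factors outside the rule 2 were higher, Cox18 (0.34) and Oxa1l (0.32), which insert proteins into the inner membrane, and 4 were lower. The lower ones were Atpif1 (-0.67), the inhibitor of ATP synthase hydrolysis, Cox20 (-0.36), a chaperone of a complex IV subunit, Atpaf1 (-0.28), an ATP synthase assembly factor, and Acad9 (-0.25), which acts in complex I assembly and was named after its values were seen. Atpif1 had a lowest, median and highest level of 11.83, 12.19 and 12.53 in mutant arrays, against 12.75, 12.87 and 12.88 in control posterior arrays (adjusted p = 0.000618, limma). Its mutant values all lay below its control values, and it was called with arrays 1 to 3 only (-0.90, adjusted p = 2.72e-06) and 4 to 6 only (-0.44, adjusted p = 0.00165, limma).

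Of 15 genes of the tricarboxylic acid cycle, which supplies NADH and succinate, Pdha1 was higher (0.35) and Suclg2 lower (-0.31). Of 14 regulators of mitochondrial biogenesis 1 was higher, the coactivator Ppargc1b (0.59), and 3 were lower. The lower ones were Tfb1m (-0.38), which methylates mitochondrial ribosomal RNA, Tfam (-0.35), which packages and transcribes mitochondrial DNA, and Nrf1 (-0.26), the factor whose motif is given above. Tfam had a lowest, median and highest level of 9.48, 9.87 and 10.01 in mutant arrays, against 10.04, 10.16 and 10.27 in control posterior arrays, without overlap (adjusted p = 0.00798, limma), and was called with arrays 1 to 3 only (-0.48, adjusted p = 0.00107) and 4 to 6 only (-0.23, adjusted p = 0.0345, limma). Of 6 carriers and channels 1 was higher, the outer membrane channel Vdac2 (0.25).

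Mitochondrial ribosomes translate the subunits that mitochondrial DNA encodes. Of 76 of their protein genes 9 were lower and 0 higher over all mutant arrays, with a median of -0.13, led by Mrpl9 (-0.89), Mrps15 (-0.52) and Mrps9 (-0.37). With mutant arrays 4 to 6 only, 55 of 76 were lower and 0 higher (median -0.32), and with 1 to 3 only, 10 were higher and 7 lower (median 0.07). Mrpl9 was lower in both sets and lowest in arrays 1 to 3, with a mean of 8.35 in mutant arrays 1 to 3 and 9.54 in 4 to 6, against 9.83 in control posterior arrays. Of 54 genes of a list for the cytosolic ribosome, which by its symbol rule also took in Rps6ka kinases, 7 were lower and 0 higher, led by Rpl39l (-0.74), Rps6ka5 (-0.66) and Rpl37 (-0.54).

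The muscle isoforms of complex IV, which the rule leaves out, were set beside the members since whole palate holds muscle. Cox6a2 had a lowest, median and highest level of 7.69, 9.63 and 10.85 in mutant arrays, against 7.58, 8.53 and 9.29 in control posterior arrays, a difference of 0.90 (adjusted p = 0.147, limma). Cox8b differed by 1.00 (adjusted p = 0.116) and Cox7a1 by 0.12 (adjusted p = 0.826). The mutant ranges reached above the control ranges but overlapped them. With mutant arrays 1 to 3 only, Cox6a2 (1.59) and Cox8b (1.90) were called higher (adjusted p = 0.00274 and 0.000314, limma), and the differences with 4 to 6 only were 0.21 and 0.10, neither of them called. Cox7a1 went the other way with 4 to 6 only, where it was called lower (-0.48, adjusted p = 0.00968, limma), and it was not called with 1 to 3 only (0.72, adjusted p = 0.0594, limma). Its level was 7.65, 5.95 and 6.01 in mutant arrays 1 to 3, and without mutant array 1 its difference over the other 5 was -0.22 (adjusted p = 0.339, limma). Without mutant array 6, Cox6a2 (1.25, adjusted p = 0.0183) and Cox8b (1.36, adjusted p = 0.0134) were called higher over the other 5 (limma). Of 28 sarcomere genes 3 were higher over all mutant arrays and 0 lower, with 15 higher for arrays 1 to 3 only (median 1.19) and 0 for 4 to 6 only (median 0.48).

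Between posterior and anterior palate of controls, few members differed. Of the 91 genes 1 was called, Cox8c, which was higher in posterior palate, and 4 had an unadjusted p under 0.05. Over all genes 3.82% were called, 1.7% higher and 2.12% lower. The median difference over the members was 0.03, with 66 positive and 25 negative, and -0.02 over all genes. Groups did not overlap for 1 member, where 6.32% of all genes did not overlap. For 86 of the 91 genes the 95% interval lay within 0.5 on the log2 scale in either direction.

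Cox8c, known as a testis isoform of subunit 8, had a lowest, median and highest level of 7.43, 7.47 and 7.61 in control posterior arrays, against 7.06, 7.22 and 7.30 in control anterior arrays. The groups did not overlap, at levels near the array medians. The difference was 0.28 (SE 0.07, adjusted p = 0.0348, limma), and its second probe set differed by 0.12 (adjusted p = 0.565). With the replicate number as a block over all 18 arrays, mutant arrays included, 0 of the 91 genes were called (3 had an unadjusted p under 0.05, limma). Over all genes 3.72% were called in that fit, and Cox8c had adjusted p = 0.0594 (limma). This is not a paired test of the control arrays alone. The call was also lost without 1 array in 9 of 18 fits, those without control anterior arrays 1 to 4 or control posterior arrays 1, 2, 4, 5 or 6 (differences of 0.25 to 0.30, adjusted p up to 0.0947, limma).

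The other members with a small p for region were not called. Ndufa4l2 had a lowest, median and highest level of 8.95, 9.32 and 9.54 in control posterior arrays, against 9.15, 9.87 and 10.37 in control anterior arrays, a difference of -0.51 (95% interval -0.92 to -0.09, adjusted p = 0.152, limma). Its anterior values were spread widely and overlapped the posterior ones. Ndufa13, a complex I subunit, differed by 0.20 (adjusted p = 0.216), Ndufb2 by 0.19 (adjusted p = 0.405), and the complex II anchor Sdhd by 0.16 (adjusted p = 0.245). In complexes III and V the smallest p belonged to Uqcrc1 (-0.12, adjusted p = 0.472) and Atp5pb (0.07, adjusted p = 0.519), and among the assembly factors to Sdhaf2 (0.15, adjusted p = 0.443) and Ndufaf1 (-0.09, adjusted p = 0.493).

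The muscle isoforms did differ by region. Cox6a2 had a lowest, median and highest level of 7.58, 8.53 and 9.29 in control posterior arrays, against 6.12, 6.55 and 7.09 in control anterior arrays. Cox8b had 6.95, 7.58 and 8.26 in control posterior arrays, against 5.41, 5.67 and 6.00 in control anterior arrays. Neither gene had overlapping groups. Cox6a2 was higher posteriorly by 1.96 (SE 0.40, adjusted p = 0.00885, limma) and Cox8b by 1.88 (SE 0.41, adjusted p = 0.0144, limma), while Cox7a1 differed by -0.28 (adjusted p = 0.635). Of 28 sarcomere genes 26 were higher posteriorly and 0 lower. Their common partners showed no such difference: Cox6a1 had -0.03 (95% interval -0.14 to 0.08), Cox7a2 0.00 (95% interval -0.14 to 0.14) and Cox8a 0.06 (95% interval -0.14 to 0.27). With the sarcomere mean as a covariate, whose values do not overlap between the regions, the median over the members was -0.25 and 0 were called (18 had an unadjusted p under 0.05, limma). Of all genes, 0.26% were called in that fit, with a median of -0.04 over all genes.

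**Figure D5:**
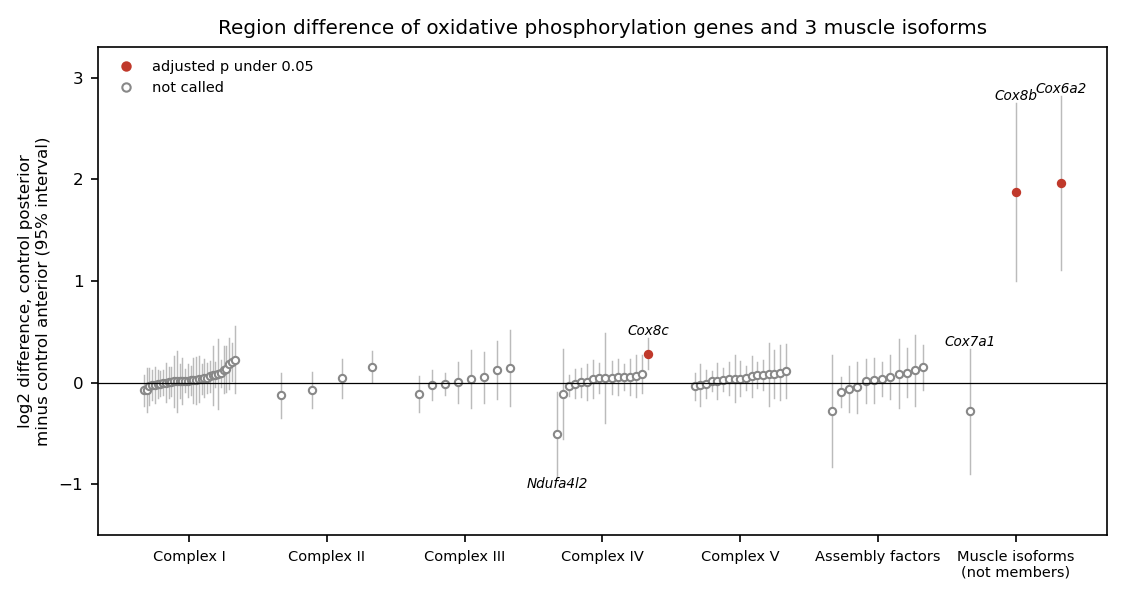
Log2 difference of each of the 91 genes, control posterior minus control anterior palate, grouped by complex, with the muscle isoforms Cox6a2, Cox8b and Cox7a1 set apart. Members lie between -0.51 and 0.28, while Cox6a2 and Cox8b lie at 1.96 and 1.88.

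Of the pathway lists, electron carriers, assembly factors outside the rule, the tricarboxylic acid cycle, carriers and channels, and the mitochondrial ribosome had 0 calls for region (0, 0, 2, 0 and 2 genes with an unadjusted p under 0.05, limma). Among regulators of biogenesis 1 was lower, Ppargc1a, a coactivator that raises mitochondrial content in several tissues. It had a lowest, median and highest level of 5.62, 5.94 and 6.55 in control posterior arrays, against 6.53, 7.06 and 7.36 in control anterior arrays. The groups overlapped at their edges, below the array medians, and the difference was -0.99 (SE 0.18, adjusted p = 0.00315, limma). In the list for the cytosolic ribosome Rpl39l, a ribosomal protein paralogue, was higher posteriorly (1.65), and the kinase gene Rps6ka3 was lower (-0.28).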

How the data were processed

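RNA of 18 palate samples was hybridised to 1-colour Affymetrix arrays. The authors made the deposited log2 values for 45101 probe sets with RMA, named without a version, per the submitters' processing notes. RMA gives all arrays 1 common distribution and so can hide a shift of most genes. The precision is limited by the number of arrays. Groups and replicate numbers come from the sample titles. The design text gives 5 samples per group and the labels list 6, all used here.

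Probe sets were named by the platform annotation: 34945 had 1 symbol, 932 several and 9160 none, and 64 controls were left out. The brightest probe set over all arrays stood for its gene. Another 10 probe sets with several symbols fit the rule and were not used. All 91 members matched a RefSeq table by Entrez number. The members and lists were chosen with earlier results of these data known.

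The tests used limma 3.58.1 under R 4.3.3 (lmFit, eBayes, 2-sided, 15 residual degrees of freedom, Benjamini-Hochberg over 18193 genes; statmod 1.5.0), checked on simulated data. Named genes were the called members, up to 2 with the smallest p per complex without a call, a fixed set of core and isoform genes, the muscle isoforms and up to 3 called genes per direction and list.

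Deviations from group means were correlated between arrays of equal number. They correlated above 0.1 in 6 of 6 region pairs (0.111 to 0.430) and in 2 of 6 genotype pairs (-0.222 to 0.157). A level shared by control arrays 1 to 3, or by 4 to 6, could give such correlations without pairs. They therefore do not show that equal numbers are pairs, and the labels do not say so. The replicate block was kept as an alternative only. Alternatives were other probe set choices, filters, scalings, variance models, array weights, blocks, subsets of arrays, covariates and leaving out each array; the 4 to 6 and 1 to 3 mutant fits with centring were added after seeing the data. Motifs were searched in 250 bases before RefSeq starts. Python 3.11.15 with matplotlib 3.10.9 drew the figures.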

Additional observations from a re-analysis of the deposited data

Results flagged for a closer look

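Single arrays that stood apart from the other 5 of their group were found in 11 of 129 checks of a gene in a group, by Dixon's criterion for 6 samples. Chance flags about 1 in 20 groups. In mutant array 6, which had the lowest mean over the members, the complex I subunit Ndufb10 (10.65) and the Rieske protein Uqcrfs1 (11.30) were low. In control posterior palate, array 3 was high for the matrix subunit Cox5b (13.75) and for Uqcr10 of complex III (12.01) and low for the assembly factor Sdhaf2 (9.65), and array 1 was low for Cox7a2 (13.53). In control anterior palate, array 2 was low for the c-ring gene Atp5g3 (13.40), for Cox7a2l (11.84) and for Sdhb (11.82), array 5 was low for Cox7b2 (3.01), and array 6 was low for the ATP synthase alpha subunit Atp5a1 (12.54). Without mutant array 6, Ndufb10 differed by -0.37 between mutant and control posterior palate and was still called.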

How the results depend on the processing

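The main genotype result was 2 members higher and 10 lower with a median log2 difference of -0.06, and the main region result 1 higher and 0 lower with a median of 0.03. For genotype there was 1 higher member with dim genes left out and with each array centred on its median. There were 16 lower with the mean of all probe sets (5.40% of all genes lower) and 26 with each probe set tested (5.36% of all probe sets). The 12 arrays alone gave 1 higher and 6 lower (3.57% of all genes lower), and array weights 23 lower (8.78%). Both the 4 sets as a random block (1.71%) and an adjusted p under 0.01 (2.36%) gave 1 higher and 2 lower. The main fit called 5.73% of all genes lower. Mutant arrays 1 to 3 gave 18 higher and a median of 0.084, where Uqcr10 turned to 0.31. Mutant arrays 4 to 6 gave 1 higher, 40 lower and a median of -0.21, where Atp5g1 turned to -0.27; with centring, added after seeing the data, they gave 1 higher, 39 lower, a median of -0.22 and -0.29 for Atp5g1. Control arrays 1 to 3 gave 0 and 0 (135 genes called in all). Control arrays 4 to 6 gave 0 higher and 3 lower (2.01% of all genes lower), and the sarcomere covariate 0 higher and 5 lower (2.96%). For region there were 0 higher with the mean of probe sets (1.62% of all genes higher) and the replicate block (1.63%). Control arrays 1 to 3 (0.286%) or 4 to 6 (0.0385%) also gave 0 higher. There were 0 higher too with the sarcomere covariate (0.154% of all genes higher, member median -0.25) and at an adjusted p under 0.01 (0.781%). The 12 arrays alone gave 2 higher (4.74% of all genes higher). Array weights gave 2 higher and 1 lower (7.11% and 11.3% of all genes). Control sets as a fixed factor gave 3 higher (6.07%), and each probe set tested gave 1 lower (1.38% of all probe sets). Leaving out each array gave 1 to 3 higher and 5 to 14 lower for genotype and 0 to 1 higher for region. The fewest lower calls came without control posterior array 5 and the most without mutant array 2. The causes of these changes were not tested.

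The replicate block left 2 higher and 9 lower members for genotype, where Sdhaf3 had adjusted p = 0.0548 (limma); equal numbers share only a number there. Median centring moved the calls over all genes to 842 higher of 2077, against 1407 higher of 2449 as deposited. Quantile normalization again, trend and robust variance and the basal and simple epithelium covariate kept all 12 genotype calls and that of Cox8c for region. Over the single genes named, 108 values lost and 36 gained a call. Dim probe sets and small differences limit what 6 arrays a group can show.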

Other observations

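ND5, a core subunit of complex I that mitochondrial DNA encodes and that no member stands for, was chosen after its values were seen. Its lowest, median and highest level was 11.36, 11.70 and 12.21 in mutant posterior arrays, against 10.60, 11.10 and 11.40 in control posterior arrays, so the ranges overlapped at the edge. The difference was 0.71 (SE 0.16, adjusted p = 0.00802, limma), higher than the control mean in 6 of 6 mutant arrays. It was 0.74 with mutant arrays 1 to 3 only and 0.68 with 4 to 6 only, both called (adjusted p = 0.0162 and 0.0185, limma), where the median of the nuclear members was 0.08 and -0.21. With the 4 sets as a random block ND5 was not called (adjusted p = 0.0556, limma). Between control posterior and control anterior palate it differed by 0.31 (adjusted p = 0.306, limma).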
